A study of Mus musculus with 8 samples.

Results

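The comparison described here is the difference between the leukemic responses of HSC and of KSL cells in non-transformed mouse marrow. For each gene the response of HSC is the log2 level in HSC of leukemic mice minus that in HSC of normal mice, the response of KSL is the same difference in KSL cells, and the interaction is the HSC response minus the KSL response. An interaction above 0 means that the HSC response was the higher one, whichever of the cell types differed between the states. The interaction was read for the 15489 genes with no array at the lowest value of the table (3.32 in log2, 10 on the linear scale), out of 18193 genes in all (85.1%). Of the other genes, 1414 lay at that value on 1 to 7 arrays and 1290 on all 8, where the minimum would set the difference.

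The study compared normal blood stem and progenitor cells that shared a marrow with BCR-ABL leukemia against the same cells from control marrow, on 8 mouse expression arrays with 2 in each of 4 groups. Leukemic mice were CD45.1+ hosts that had received CD45.2+ marrow with the BCR-ABL and SCL-tTA transgenes together with an equal number of CD45.1+ marrow cells, and normal mice were chimeras without the BCR-ABL transgene. The sorted cells of all 4 groups were CD45.1+, carried no transgene, and were taken 4 weeks after tetracycline was removed from the water, which switches BCR-ABL on in the cells where the stem cell leukemia (SCL) enhancer drives tTA. KSL is the lineage-negative, Kit+, Sca-1+ gate and HSC its CD150+ CD48- fraction, so the KSL arrays also read HSC, and the labels do not say that the 2 replicates of a group came from separate animals.

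Stem cells at the top of blood formation are mostly quiescent and give rise to multipotent progenitors, which make up most of the KSL gate and are already primed toward lymphoid or myeloid fates. In chronic myeloid leukemia the leukemic cells and the marrow around them produce inflammatory cytokines, among them interleukin-1 and interleukin-6, and the normal stem and progenitor cells beside them are exposed to these. A response that differs between HSC and KSL is of interest because cytokine receptors, cell-cycle state and lineage priming differ between the stem cell and its progeny.

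The sorts left their mark on the genes of the gates. Slamf1, which encodes CD150, lay between 8.23 and 9.36 on the 4 HSC arrays and between 5.27 and 7.06 on the KSL arrays. Cd48 lay between 6.19 and 8.12 on the HSC arrays and between 10.17 and 10.44 on the KSL arrays. The HSC arrays were the noisier ones, with a median standard deviation between replicates of 0.23 and 0.24 log2 units in the normal and leukemic groups against 0.13 and 0.11 in KSL. Replicate 1 of both normal groups had a male level of Xist, at 5.79 in HSC and 3.67 in KSL against 11.63 to 11.99 on the other 6 arrays. Control probe sets at the 3′ and 5′ ends of Gapdh differed by 0.78 and 0.83 in HSC of normal mice, 1.19 and 1.03 in HSC of leukemic mice, and 0.73 to 0.89 in KSL. For Tfrc the same difference came to −2.04 and −1.74 in HSC of normal mice and −0.36 and −0.75 in HSC of leukemic mice, and −1.68 to −1.28 in KSL. The HSC arrays of leukemic mice thus stood apart in these 2 controls of RNA quality. For Actb they lay at −0.42 and −0.50, within the −0.53 to −0.37 of all arrays. For pyruvate carboxylase they lay on both sides of HSC of normal mice, at −0.85 and 0.12 against −0.38 and −0.82, with −0.96 to −0.37 in KSL. The part of RNA quality in the results was not tested.

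No gene above the minimum passed the test of the interaction. With limma fitted to all 18193 genes and Benjamini-Hochberg adjustment over all of them, the smallest adjusted p among the 15489 genes was 0.0578, and 1 gene of the whole table passed (0.0055%), a gene at the minimum on 6 arrays. At an unadjusted p under 0.05 there were 831 genes with a higher HSC response (5.37%) and 723 with a lower one (4.67%), together 1554 genes or 10%. Leaving out 1 array gave 14 calls among these genes without replicate 1 of HSC of normal mice, 25 and 52 without replicate 1 or 2 of HSC of leukemic mice, and 0 for each of the other 5, with the lone array assumed to vary like the other groups. The shares at an unadjusted p under 0.05 are the background against which such counts of gene groups below are read. Counts above or below 0 are read against all 15489 genes, of which 8066 had an interaction above 0 and 7423 below it. The median response of these genes was 0 in HSC and −0.02 in KSL. The interaction had a median of 0.02, its 5th and 95th percentiles were −0.92 and 0.98, and the median standard error was 0.34.

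The measured responses of the cell types were weakly correlated across genes. Pearson's r between them was 0.171 over the 15489 genes, which are not independent replicates, and the HSC response rests on the arrays with the larger spread. Noise from 2 arrays per group lowers such an r, so it does not say how much of the responses was shared. The median size of the response was 0.26 in HSC and 0.18 in KSL, and it was the larger one in HSC for 9394 genes. A larger spread between replicates also enlarges such sizes. The median spread was 0.23 and 0.24 in the HSC groups against 0.13 and 0.11 in KSL, so these sizes do not show that HSC responded more. The fit gave each gene a common spread for all groups, so errors tend to be too small in HSC and too large in KSL. A separate spread for HSC and KSL arrays was fitted for the interaction only. The leukemic response passed in HSC for 18 genes of the table (0.0989%), 13 of them above the minimum, and in KSL for 8 genes (0.044%), 7 of them above it. Read the other way, HSC differed from KSL in normal mice for 328 genes (1.8%) and in leukemic mice for 1067 genes (5.86%), and 306 and 1012 of these were above the minimum.

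The 200 genes with the smallest interaction p, 105 with a higher and 95 with a lower HSC response, differed in which cell type had the larger response. Among them 82 had a response above 0 in HSC and below 0 in KSL, and 75 the opposite. The size of the response was larger in HSC for 134 and in KSL for 66. Over all 15489 genes it was larger in HSC for 9394 and in KSL for 6095, with the noisier arrays in HSC. Choosing genes by the difference favours responses of opposite sign, and over all 15489 genes 7050 had them. In 138 of the 200 the gap between HSC and KSL was wider in leukemic than in normal mice, and in 62 it was narrower, where over all 15489 genes it was wider in 9131 and narrower in 6358.

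**Figure D1:**
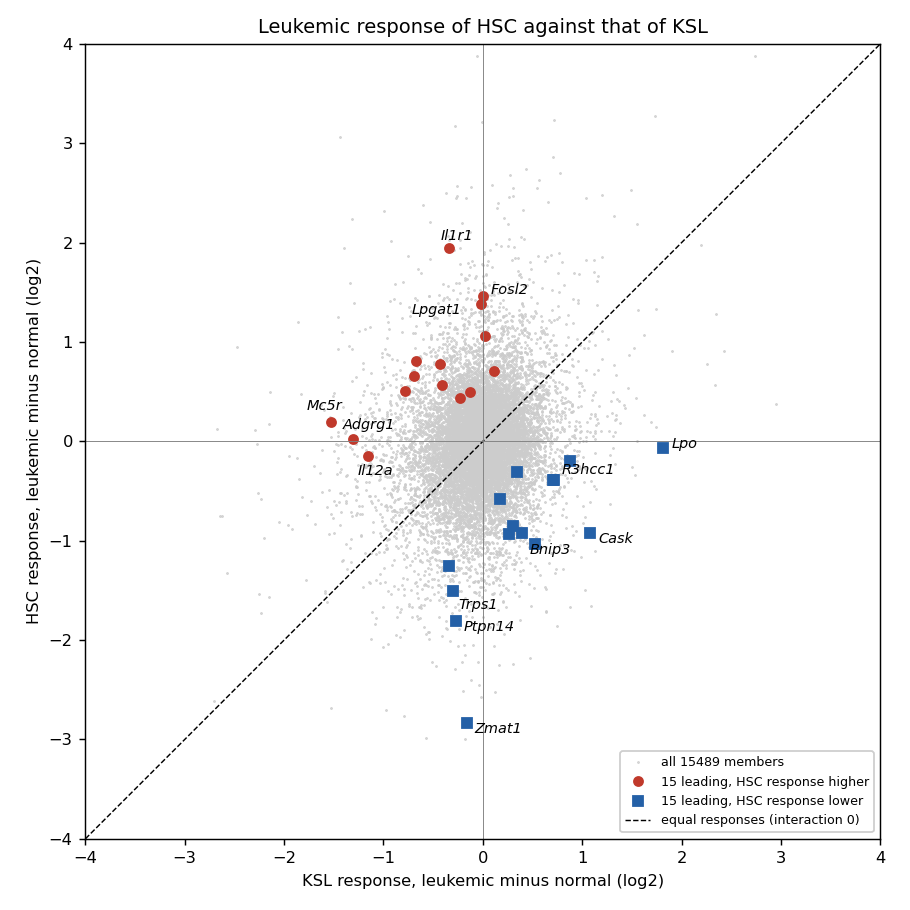
Leukemic response of HSC (vertical axis, log2) against that of KSL (horizontal axis, log2) for the 15489 genes above the minimum, 9 of which lie outside the axes at 4 log2 units. The 15 leading genes with a higher HSC response (red circles) lie above the line of equal responses and the 15 with a lower one (blue squares) below it; Il1r1 and Fosl2 are high on the HSC axis near 0 on the KSL axis, and Adgrg1, Il12a and Lpo lie along the KSL axis.

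The first set of genes passed in HSC, with KSL responses that did not pass. Il1r1 encodes the signalling receptor of interleukin-1. It read 6.30 and 6.42 in HSC of normal mice, 8.29 and 8.34 in HSC of leukemic mice, 8.13 and 8.22 in KSL of normal mice and 7.92 and 7.74 in KSL of leukemic mice. The HSC groups were thus far apart and HSC of leukemic mice reached the level of KSL. Il1r1 rose in HSC by 1.95 ± 0.08 (SE, n = 2 arrays per group, limma adjusted p = 0.0219), the KSL response was −0.34, and the interaction was 2.29 ± 0.12 (unadjusted p = 1.2e-05, adjusted p = 0.0578). The adjusted p was 0.0484 with a prior spread that follows the level, 0.0486 without replicate 2 of HSC of leukemic mice and 0.0449 with the mean of all probe sets, where the interaction was 1.15 because a second probe set lay at the minimum on all 8 arrays. Under the other 17 alternatives it was 0.0516 to 0.466.

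Fosl2 encodes the AP-1 transcription factor Fra-2. Its levels were 6.65 and 6.64 in HSC of normal mice, 8.07 and 8.15 in HSC of leukemic mice, 7.19 and 7.34 in KSL of normal mice and 7.27 and 7.25 in KSL of leukemic mice. HSC of normal mice lay below both KSL groups and HSC of leukemic mice above them. Fosl2 rose in HSC by 1.47 ± 0.06 (adjusted p = 0.0219) and its interaction was 1.47 ± 0.09 (adjusted p = 0.0894). A second Fosl2 probe set gave an interaction of 0.30.

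Kif11, a motor protein of the mitotic spindle, read 8.67 and 8.75 in HSC of normal mice and 9.73 and 9.81 in HSC of leukemic mice, beside 9.74 to 9.91 on the 4 KSL arrays. It rose in HSC by 1.06 (adjusted p = 0.0458), and the interaction was 1.04 ± 0.10 (adjusted p = 0.166), with 2.04 and 0.47 for its other probe sets. Lpgat1, an acyltransferase of phospholipid synthesis, rose in HSC by 1.38 (adjusted p = 0.0458), from 6.43 and 6.60 to 7.82 and 7.98. Its interaction was 1.40 ± 0.13, but 4 other Lpgat1 probe sets gave −0.60, −0.94, −1.17 and −0.88, so the direction for this gene is not settled. Cdc42ep2, an effector of the GTPase Cdc42 that shapes the actin skeleton, rose in HSC by 0.71 (adjusted p = 0.0382) and had an interaction of 0.59 ± 0.06. Lor, known as a protein of the cornified skin envelope, rose in HSC by 0.50 (adjusted p = 0.0459) from low levels of 4.91 on both arrays to 5.40 and 5.42, with an interaction of 0.63 that its other probe sets, at −0.03 and −0.19, did not share.

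Other genes fell in HSC. Trps1, a GATA-type transcriptional repressor, read 7.99 and 8.11 in HSC of normal mice, 6.59 and 6.49 in HSC of leukemic mice, 8.39 and 8.34 in KSL of normal mice and 8.08 and 8.04 in KSL of leukemic mice. HSC of leukemic mice were the low group. Trps1 fell in HSC by 1.50 on the log2 scale (adjusted p = 0.0219) with a KSL response of −0.30, and the interaction was −1.20 ± 0.09 (adjusted p = 0.145), with −1.39, −1.43 and −0.25 for its other probe sets. Ptpn14, a tyrosine phosphatase that restrains the Hippo effector YAP, fell in HSC by 1.81 (adjusted p = 0.0382), from 6.67 and 6.72 to 4.88 and 4.89, a level at which the KSL arrays lay in both states (4.80 to 5.24). Its interaction was −1.54 ± 0.15, with −1.17 and −0.35 for its other probe sets. Uevld, an inactive relative of ubiquitin-conjugating enzymes, fell in HSC by 1.26 (adjusted p = 0.0382) and had an interaction of −0.92 ± 0.10. Zmat1, a zinc finger gene whose HSC response of −2.84 did not pass (adjusted p = 0.0638), had the largest difference of the 30 leading genes, −2.67 ± 0.31 (adjusted p = 0.176), with 6.37 and 6.91 in HSC of normal mice, 3.83 and 3.78 in HSC of leukemic mice and 5.14 to 5.53 in KSL.

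Among genes outside the leading 30 that passed in HSC, named after their values were seen, the responses of HSC and KSL had the same sign. Atp8b4, a phospholipid flippase, rose in HSC by 1.56 ± 0.09 (adjusted p = 0.0382) beside a KSL response of 0.42. Rnf217, a ubiquitin ligase, rose in HSC by 1.74 ± 0.11 (adjusted p = 0.0382) beside 0.48. Its interaction was 1.26 ± 0.15 but −0.20 with the mean of all its probe sets, so the direction of the interaction is not settled. Creb3, a transcription factor anchored in the endoplasmic reticulum, fell in HSC by 1.43 (adjusted p = 0.0459) beside −0.68. Cirbp, the cold-inducible RNA-binding protein, was the exception to the split: it rose in HSC by 0.72 (adjusted p = 0.0382) and in KSL by 1.04 (adjusted p = 0.0322), and its interaction was −0.32 ± 0.05 (adjusted p = 0.277).

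The second set passed in KSL. Il12a, the p35 subunit of interleukin-12 and a gene of early lymphoid-primed progenitors, read 9.97 and 10.01 in KSL of normal mice and 8.80 and 8.87 in KSL of leukemic mice, beside 9.60 and 9.59 in HSC of normal mice and 9.52 and 9.38 in HSC of leukemic mice. KSL of leukemic mice were thus lowest and KSL of normal mice highest. Il12a fell in KSL by 1.16 on the log2 scale (adjusted p = 0.0426), with an interaction of 1.01 ± 0.08 (adjusted p = 0.166). In bulk samples such as these, fewer cells of a type and less RNA per cell cannot be told apart.

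R3hcc1, a gene with an R3H nucleic-acid-binding domain, was the lower gene with the smallest p. It read 7.51 and 7.44 in KSL of normal mice and 8.17 and 8.20 in KSL of leukemic mice, and 7.99 and 8.04 in HSC of normal mice and 7.63 on both arrays of HSC of leukemic mice. The order of the cell types was turned between the states. It rose in KSL by 0.71 ± 0.04 (adjusted p = 0.0446), the HSC response was −0.38 (adjusted p = 0.0932), and the interaction was −1.09 ± 0.06 (unadjusted p = 1.15e-05, adjusted p = 0.0578). The adjusted p of R3hcc1 was under 0.05 in 5 alternatives, at 0.0449 to 0.0491: the prior spread that follows the level, the mean of all probe sets, and without replicate 1 of HSC of normal mice or replicate 1 or 2 of HSC of leukemic mice. In the other 15 it was 0.0904 to 0.469.

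Dnajb9, a chaperone of the endoplasmic reticulum, fell in KSL by 0.73 (adjusted p = 0.0453) and had an interaction of 0.48 ± 0.06. Mmrn1, a platelet and endothelial matrix protein that is also high in stem cells, fell in KSL by 1.56 (adjusted p = 0.0426) from 6.34 and 6.55 to 4.85 and 4.90, with a HSC response of −0.66 and an interaction of 0.91 ± 0.11. Six5, a homeobox transcription factor, fell in KSL by 1.38 (adjusted p = 0.0322) with a HSC response of −0.60 and an interaction of 0.78 ± 0.08. Mmrn1 and Six5 were named after their values were seen. In both, and in Dnajb9, the responses of the cell types had the same sign and were larger in KSL. The remaining gene that passed in KSL is an immunoglobulin kappa segment and is only counted.

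Of the other leading genes with a higher HSC response, Adgrg1, the adhesion receptor GPR56 of stem cells, and Mc5r, a melanocortin receptor, had their difference mainly in KSL. Adgrg1 read 11.34 and 11.25 in KSL of normal mice and 10.03 and 9.95 in KSL of leukemic mice, beside 12.11 to 12.33 on all 4 HSC arrays, with an interaction of 1.33 ± 0.13 (adjusted p = 0.166). Mc5r had a KSL response of −1.52 and an interaction of 1.72 ± 0.17. In the remaining 6 the responses had opposite signs: Tpm4, a tropomyosin of the actin skeleton, had 0.81 in HSC and −0.67 in KSL. Pld6, a mitochondrial phospholipase of piRNA biogenesis, had 0.66 and −0.69. The MHC class II chaperone gene H2-Oa had 0.51 and −0.78, the bromodomain gene Brpf3 0.57 and −0.41, the phosphoinositide-binding gene Zfyve1 0.78 and −0.43, and the chloride channel gene Ttyh3 0.43 and −0.23, in HSC and KSL. None of these 12 responses passed, nor did the 6 interactions, each with an adjusted p of 0.166.

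Of the other leading genes with a lower HSC response, Lpo, which encodes the secreted enzyme lactoperoxidase, had its difference in KSL: 6.04 and 6.02 in normal mice against 7.99 and 7.70 in leukemic mice, beside 4.60 to 4.89 on all 4 HSC arrays. Its interaction was −1.88 ± 0.20 (adjusted p = 0.166). Cask, a scaffold kinase of cell junctions, read 6.58 and 6.19 in HSC of normal mice, 5.60 and 5.33 in HSC of leukemic mice, 6.95 and 7.02 in KSL of normal mice and 8.0 and 8.13 in KSL of leukemic mice. Its responses were −0.92 in HSC and 1.08 in KSL, neither of which passed, with an interaction of −2.0 ± 0.23 (adjusted p = 0.176), and its 3 other probe sets gave −1.20, −1.62 and −1.95. Zfp518b, a zinc finger gene, had an interaction of −1.56 ± 0.18, but −0.11 for its other probe set. Veph1 had −1.20, at low levels of 3.59 to 4.75 near the minimum of 3.32. Nup43, a nuclear pore subunit, had −1.15 with −0.23 for its other probe set, Avpi1 −0.76, and Ruvbl2, a helicase of chromatin remodelling complexes, −0.66. None of these genes passed in either cell type, and the adjusted p of their interaction lay at 0.166 or 0.176.

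**Figure D2:**
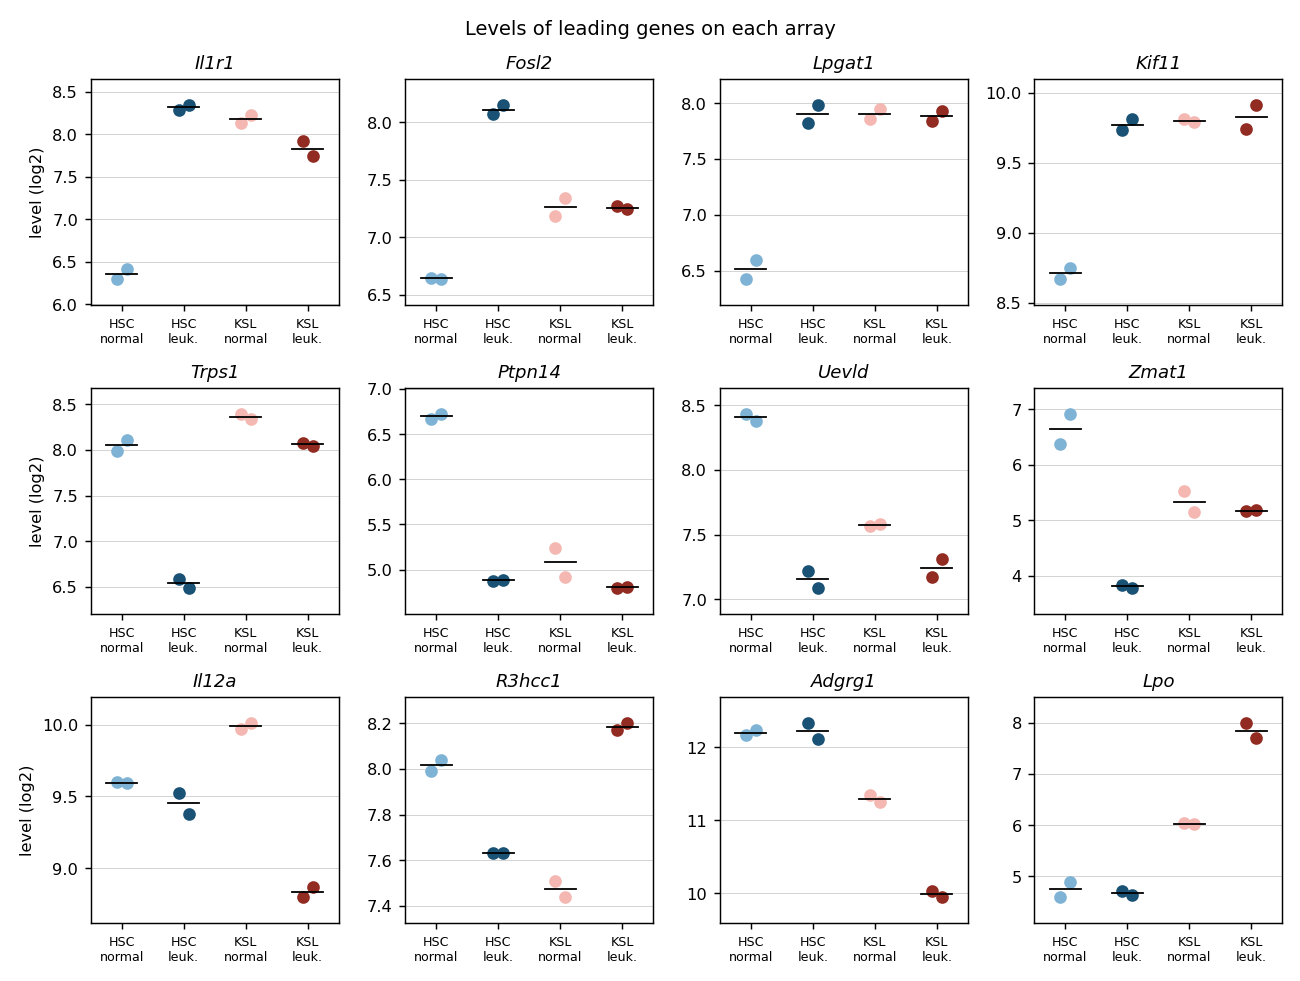
Log2 level of 12 leading genes on each of the 8 arrays (points, 2 per group) with the group mean (black line); each panel has its own vertical axis, which does not start at 0. Il1r1, Fosl2, Lpgat1 and Kif11 differ between the HSC groups, Trps1, Ptpn14, Uevld and Zmat1 differ the other way, and Il12a, Adgrg1 and Lpo differ between the KSL groups.

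Immediate-early genes, which cells switch on within minutes of a stimulus and which are also switched on by cell dissociation, had the widest shift among the larger groups. The list held 31 entries, of which 30 were above the minimum. The interaction was above 0 in 27 and below 0 in 3, and 12 of the 30 had an unadjusted p under 0.05 with a higher HSC response against 0 with a lower one, where the background is 5.37% and 4.67%. No interaction passed after adjustment. The median interaction was 0.74 against 0.02 over all genes above the minimum, and the median response was 0.05 in HSC and −0.62 in KSL, where 29 of 30 members lay below 0. The median of the members' levels, each centred on its mean over the groups, was 0.45 and 0.20 in HSC of normal mice, 0.26 and 0.20 in HSC of leukemic mice, 0.12 and −0.04 in KSL of normal mice and −0.58 on both arrays of KSL of leukemic mice. KSL of leukemic mice were the group that stood apart. Without both male arrays the median interaction was 0.53.

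The AP-1 factors of the list show this shape. Fosb read 10.10 and 10.13 in KSL of normal mice and 9.13 and 8.82 in KSL of leukemic mice, beside 10.05 to 10.34 on the HSC arrays, and its interaction was 1.16 ± 0.23 (adjusted p = 0.313). Jun, its dimer partner, read 11.99 and 11.77 in KSL of normal mice and 11.01 and 11.16 in KSL of leukemic mice, with an interaction of 0.66 ± 0.14 (adjusted p = 0.329) and 1.03 for another probe set. Fos had an interaction of 0.85 ± 0.22. Fosl2 differed from these in that its response was in HSC. Of the zinc finger and orphan receptor genes, chosen after their values were seen, Egr1 read 11.46 and 11.00 in KSL of normal mice and 10.07 and 9.46 in KSL of leukemic mice, with an interaction of 1.56 ± 0.39 (adjusted p = 0.388). Nr4a1 read 9.15 and 8.51 in KSL of normal mice and 7.10 and 7.29 in KSL of leukemic mice, below 10.46 to 11.21 on the HSC arrays, and had an interaction of 1.31 ± 0.47 (adjusted p = 0.508). Nr4a2 had 1.41 ± 0.41 and Klf4 1.35 ± 0.31. Dusp6, a phosphatase that feeds back on ERK, had 1.09 ± 0.22 with responses of 0.72 in HSC and −0.38 in KSL. Atf3 went against the list, with an interaction of −1.23 ± 0.49 and a HSC response of −1.50. Of the RNA quality controls, Gapdh overlapped between the KSL groups, at 0.89 and 0.74 in normal and 0.73 and 0.75 in leukemic mice. Pyruvate carboxylase overlapped too, at −0.43 and −0.96 against −0.37 and −0.54. Tfrc, at −1.28 and −1.58 against −1.65 and −1.68, and Actb, at −0.48 on both arrays against −0.53 on both, did not overlap, and their part in the shift was not tested.

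Promoters of these genes are known to carry the binding element of the factor CREB, whose core is TGACG. Of the 30 members 25 had a promoter window in the RefSeq table (300 bases around the start, GRCm38.p6), and 16 of them (64.0%) held TGACG on either strand, against 31.9% of the 12383 genes above the minimum with a window and 20.8% of all 32851 windows. The full palindrome TGACGTCA, which contains TGACG, was in 3 (12%) against 3.1% and 1.8%. The AP-1 motif TGANTCA was in 1 of 25 (4.0%) against 6.7%, the STAT motif TTCNNNGAA in 3 (12%) against 8.3%, the ETS-type motif GGGAAGTG in 0 against 3.0%, and CACCC, read by Kruppel-like factors, in 17 (68.0%) against 67.2%. The TGACG search was added after values were seen, and a match describes letters and not a site in use. The windows of Nr4a1 and Fosb are shown because both members had their difference in KSL, with TGACG or its complement CGTCA in capitals, which Nr4a1 held 4 times and Fosb once.
Nr4a1 (GRCm38.p6, chr15:101266596-101266895, plus strand): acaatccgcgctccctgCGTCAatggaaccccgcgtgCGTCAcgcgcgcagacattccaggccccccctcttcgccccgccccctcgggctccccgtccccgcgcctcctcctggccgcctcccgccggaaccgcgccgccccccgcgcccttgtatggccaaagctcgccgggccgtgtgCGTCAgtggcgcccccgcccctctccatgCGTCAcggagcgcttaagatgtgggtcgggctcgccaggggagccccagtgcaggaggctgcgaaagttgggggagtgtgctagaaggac
Fosb (GRCm38.p6, chr7:19309996-19310295, minus strand): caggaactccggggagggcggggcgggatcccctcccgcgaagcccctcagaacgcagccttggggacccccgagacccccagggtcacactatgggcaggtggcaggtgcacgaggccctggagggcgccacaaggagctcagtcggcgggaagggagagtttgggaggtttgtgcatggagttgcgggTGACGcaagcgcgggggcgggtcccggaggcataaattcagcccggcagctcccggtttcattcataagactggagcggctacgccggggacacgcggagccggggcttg
Other members went against such a split: Atf3, whose larger response was in HSC, held TGACG. Jun, whose larger response was in KSL, had a window without it. The window of Fosl2, whose response was in HSC, held neither TGACG nor TGANTCA, and 1 CACCC, in capitals.
Fosl2 (GRCm38.p6, chr5:32136222-32136521, plus strand): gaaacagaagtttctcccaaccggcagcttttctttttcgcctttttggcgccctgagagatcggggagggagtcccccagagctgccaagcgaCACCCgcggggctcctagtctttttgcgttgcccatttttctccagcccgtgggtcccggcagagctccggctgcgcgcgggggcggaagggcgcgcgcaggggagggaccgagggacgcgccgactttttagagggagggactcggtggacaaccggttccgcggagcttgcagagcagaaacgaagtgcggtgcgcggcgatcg

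Megakaryocyte and platelet genes had the largest list median. Of 15 members above the minimum 14 had an interaction above 0, with a median of 1.22, and 4 had an unadjusted p under 0.05, all with a higher HSC response. The median response was 0.51 in HSC and −0.55 in KSL. The centred median level was 0.20 and 0.78 in HSC of normal mice, 1.23 and 1.22 in HSC of leukemic mice, −0.79 and −0.27 in KSL of normal mice and −1.23 and −1.30 in KSL of leukemic mice, so both cell types were drawn apart. Itga2b, the integrin alpha IIb chain CD41, read 9.16 and 9.69 in HSC of normal mice, 10.32 and 10.41 in HSC of leukemic mice, 8.07 and 8.64 in KSL of normal mice and 7.72 and 7.62 in KSL of leukemic mice. Its interaction was 1.62 ± 0.37 (adjusted p = 0.356). Its partner Itgb3 had 2.01 ± 0.67, but 0.22 for another probe set. The platelet chemokine gene Pf4 had 1.76 ± 0.59, with −1.41 in KSL, and the podoplanin receptor gene Clec1b 2.23 ± 0.76, with 1.92 in HSC. None passed. The summed level of the 16 measured genes, of which Gp6 lay at the minimum on all arrays, was 13.21 and 13.94 in HSC of normal mice, 13.97 and 14.01 in HSC of leukemic mice, and 11.66 to 12.67 in KSL, on the log2 scale. The list median was 0.72 without replicate 1 of HSC of normal mice, 0.76 without replicate 2 of HSC of leukemic mice and 0.81 without replicate 1 of KSL of leukemic mice, and it stayed above 0 for each array left out.

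Multipotent progenitor and lymphoid priming genes had their difference in KSL. Of 17 members 12 had an interaction above 0, the median was 0.62, and 5 had an unadjusted p under 0.05, all with a higher HSC response. All 17 responses in KSL were below 0, with a median of −1.01, against −0.14 in HSC, and 1 member, Il12a, passed in KSL. The centred median level was 1.00 and 0.64 in KSL of normal mice and 0.09 and −0.04 in KSL of leukemic mice. Dntt, the terminal transferase that adds bases to antigen receptor joints, read 11.07 and 9.98 in KSL of normal mice and 8.13 and 8.35 in KSL of leukemic mice, beside 5.73 to 6.30 on the HSC arrays, and its interaction was 2.41 ± 0.60 (adjusted p = 0.382). Ccr9, the chemokine receptor of cells bound for the thymus, had 0.99 ± 0.18, though 1 of its other probe sets gave −0.22. Sox4, a transcription factor of B cell progenitors, read 10.08 and 10.46 in KSL of normal mice and 9.27 and 9.25 in KSL of leukemic mice, beside 10.20 to 10.50 on the HSC arrays, and had 0.96 ± 0.23. The list median was 0.34 without replicate 1 of HSC of leukemic mice and 0.93 without replicate 2.

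The granulocyte-monocyte progenitor programme had its difference in HSC. Of 19 members 15 had an interaction above 0, the median was 0.52, and 4 had an unadjusted p under 0.05, all with a higher HSC response. The median response was 1.13 in HSC and 0.31 in KSL. The centred median level was −2.03 and −2.0 in HSC of normal mice and −0.61 and −0.87 in HSC of leukemic mice, beside 1.00 to 1.58 in KSL, so the leukemic HSC arrays remained below KSL. Irf8, the transcription factor of monocyte and dendritic cell fate, read 5.60 and 5.23 in HSC of normal mice, 6.72 and 7.27 in HSC of leukemic mice, 9.81 and 9.94 in KSL of normal mice and 8.86 and 9.11 in KSL of leukemic mice. The cell types thus drew together, and the interaction was 2.47 ± 0.33 (adjusted p = 0.211), with 1.10 for another probe set. Ctsg, the granule protease cathepsin G, read 6.50 and 6.04 in HSC of normal mice and 8.74 and 9.28 in HSC of leukemic mice, beside 12.65 to 13.27 in KSL, with an interaction of 2.30 ± 0.35 (adjusted p = 0.245). Ly86, a partner of the Toll-like receptor relative RP105, had 2.73 ± 0.54 and Plac8 0.99 ± 0.28. Ly86 read 3.80 and 3.71 in HSC of normal mice, near the minimum of 3.32, and 6.75 and 5.70 in HSC of leukemic mice. Markers of mature neutrophils and monocytes stood beside this: their summed log2 level was 13.76 and 11.65 in HSC of normal mice, 14.57 and 14.17 in HSC of leukemic mice and 13.14 to 14.03 in KSL, 0 of 21 lay at the minimum on all arrays, and their part in the result was not tested. The Gapdh and Tfrc controls also separated the HSC groups. Without both male arrays the list median was 0.83, 0.95 without replicate 1 of HSC of normal mice alone and 0.81 without replicate 2 of HSC of leukemic mice.

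**Figure D3:**
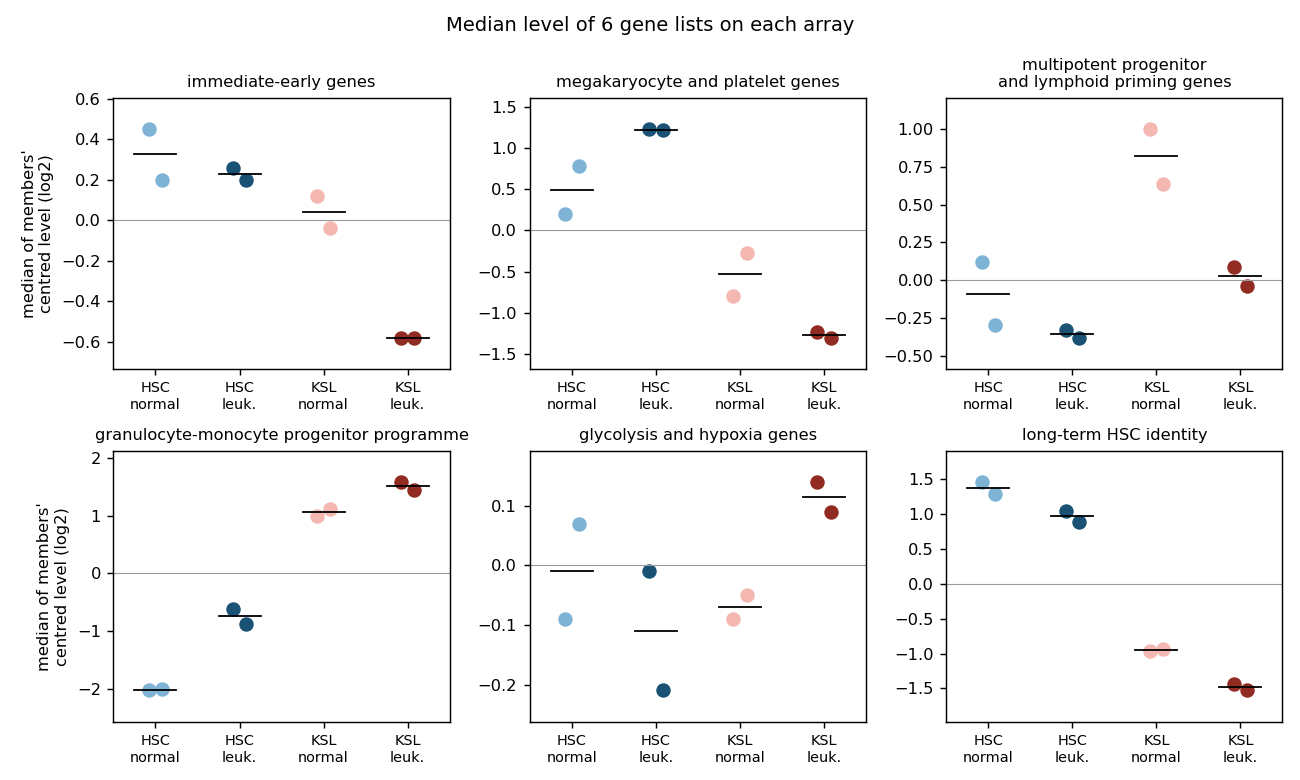
Median of the members' log2 levels, each centred on its mean over the 4 groups, for 6 gene lists on each of the 8 arrays (points) with the mean of the 2 arrays (black line); the vertical axes differ. The immediate-early panel has both arrays of KSL of leukemic mice at −0.58, and the granulocyte-monocyte panel has HSC of leukemic mice at −0.61 and −0.87, between HSC of normal mice and KSL.

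Genes of long-term HSC identity split. Of 24 members 15 had an interaction above 0 and 9 below 0, the median was 0.51, and the unadjusted p was under 0.05 in 5 with a higher and 1 with a lower HSC response. The median response was −0.24 in HSC and −0.51 in KSL. Angpt1, a ligand of the Tie2 receptor, read 10.43 and 10.41 in HSC of normal mice, 10.26 and 9.93 in HSC of leukemic mice, 8.93 and 9.00 in KSL of normal mice and 7.51 and 7.49 in KSL of leukemic mice, with an interaction of 1.14 ± 0.16 (adjusted p = 0.23) and 0.56 for another probe set. Gata2, a transcription factor of stem cells and mast cells, had 1.22 ± 0.29, and Robo4, a receptor that holds stem cells in the niche, 1.19 ± 0.29. Ifitm1, a small interferon-induced membrane protein, was the 1 member with a lower HSC response at that p, with 11.07 on both arrays of KSL of normal mice against 12.06 and 11.97 in KSL of leukemic mice and an interaction of −1.09 ± 0.22. The list median was 0.31 without replicate 1 of HSC of normal mice, 0.18 and 0.28 without replicate 1 or 2 of HSC of leukemic mice, and 0.26 without replicate 2 of KSL of normal mice.

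Self-renewal transcription factors had an interaction above 0 in 17 of 22 members, a median of 0.43, and 5 members with an unadjusted p under 0.05, all with a higher HSC response. Prdm16, a zinc finger factor that maintains stem cells, read 9.06 and 8.50 in HSC of normal mice, 8.71 and 8.52 in HSC of leukemic mice, 7.33 and 6.94 in KSL of normal mice and 5.51 and 5.01 in KSL of leukemic mice. Its difference lay in KSL, with an interaction of 1.71 ± 0.40 (adjusted p = 0.363). Its other probe sets gave 0.54, 0.71 and −0.81. Mycn had 0.49 ± 0.14, with 1.28 and −0.62 for its other probe sets, the ETS factor gene Erg 0.43 ± 0.12 and Lmo2, a bridge of GATA and SCL complexes, 0.33 ± 0.09. Quiescence genes and CDK inhibitors had 12 of 18 above 0, a median of 0.28 and 4 with an unadjusted p under 0.05, all with a higher HSC response. Cdkn1b, the cell-cycle inhibitor p27, read 9.23 and 9.38 in HSC of normal mice, 9.64 and 9.85 in HSC of leukemic mice, 9.95 and 9.99 in KSL of normal mice and 9.22 and 9.39 in KSL of leukemic mice, so the order of the cell types was turned, with an interaction of 1.11 ± 0.15 (adjusted p = 0.211) and 0.47 for another probe set. The antiproliferative gene Tob1 had 0.80 ± 0.17, Tsc1, a brake of mTOR, 0.70 ± 0.21 and Txnip, a thioredoxin inhibitor, 0.67 ± 0.21. Other probe sets gave 0.10 and −0.42 for Tsc1 and −0.07 for Tob1.

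Glycolysis and hypoxia genes ran the other way. Of 22 members 15 had an interaction below 0 and 7 above 0, the median was −0.33, and 5 had an unadjusted p under 0.05, all with a lower HSC response, where the background is 4.67%. The median response was −0.13 in HSC and 0.15 in KSL. Bnip3, a mitophagy receptor induced by hypoxia, read 7.79 and 7.59 in HSC of normal mice, 6.79 and 6.76 in HSC of leukemic mice, 7.72 and 7.62 in KSL of normal mice and 8.15 and 7.98 in KSL of leukemic mice. The cell types were level in normal mice and apart in leukemic mice, with an interaction of −1.31 ± 0.14 (adjusted p = 0.166). Egln3, the oxygen sensor PHD3, read 7.74 and 7.04 in HSC of normal mice, 5.84 and 6.28 in HSC of leukemic mice, 8.17 and 8.08 in KSL of normal mice and 8.90 and 8.80 in KSL of leukemic mice. Its interaction was −2.06 ± 0.39 (adjusted p = 0.311), and −1.69 for another probe set. Pfkl, the liver-type phosphofructokinase, had −0.97 ± 0.24 and the glucose transporter gene Slc2a1 −0.53 ± 0.14. Other Slc2a1 probe sets gave −0.29 and 0.45, so its direction is not settled.

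Both lactate transporters among the leading genes sat beside them, though they were not on the list. Slc16a1 (MCT1) read 9.07 and 9.28 in HSC of normal mice, 8.77 and 8.80 in HSC of leukemic mice, 9.37 and 9.51 in KSL of normal mice and 10.15 on both arrays of KSL of leukemic mice, with an interaction of −1.11 ± 0.12 (adjusted p = 0.176) and −1.58 for another probe set. Slc16a3 (MCT4) read 5.99 and 5.96 in HSC of normal mice, 5.82 and 5.74 in HSC of leukemic mice, 6.52 and 6.33 in KSL of normal mice and 7.34 and 7.26 in KSL of leukemic mice, with an interaction of −1.07 ± 0.11 (adjusted p = 0.166). For both the larger response was in KSL. The median of the glycolysis list was −0.18 with the mean of all probe sets of a gene and −0.14 without replicate 2 of HSC of normal mice, and Gapdh and Tfrc controls separated the HSC groups here too.

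The hypoxia-inducible factors bind a core of ACGTG. Of the 20 members with a window 15 (75%) held ACGTG on either strand, against 27.1% of genes above the minimum and 19.6% of all windows, and among the 15 leading genes with a lower HSC response, 11 of them with a window, Bnip3, Ruvbl2, Slc16a1 and Slc16a3 held it (36.4%). This search was also added after values were seen. The list holds hypoxia genes by choice, so its high share of ACGTG cannot be tied to the interaction. Of the searched lists with a median interaction above 0, immediate-early genes held ACGTG in 11 of 25 windows and megakaryocyte and platelet genes in 4 of 10. Granulocyte-monocyte genes held it in 4 of 15, long-term HSC genes in 3 of 19 and lymphoid priming genes in 1 of 14. The leading genes with a higher HSC response held it in 2 of 14 windows. The windows of Bnip3 and Egln3, the members with the largest differences, are shown with ACGTG or its complement CACGT in capitals. In Bnip3 the matches on the strands overlap in 1 palindrome.
Bnip3 (GRCm38.p6, chr7:138909457-138909756, minus strand): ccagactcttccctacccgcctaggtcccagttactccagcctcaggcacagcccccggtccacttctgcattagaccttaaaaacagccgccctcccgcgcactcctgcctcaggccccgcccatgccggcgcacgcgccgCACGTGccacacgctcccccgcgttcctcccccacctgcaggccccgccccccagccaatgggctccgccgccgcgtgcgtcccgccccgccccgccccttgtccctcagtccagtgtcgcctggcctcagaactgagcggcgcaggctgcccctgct
Egln3 (GRCm38.p6, chr12:54203825-54204124, minus strand): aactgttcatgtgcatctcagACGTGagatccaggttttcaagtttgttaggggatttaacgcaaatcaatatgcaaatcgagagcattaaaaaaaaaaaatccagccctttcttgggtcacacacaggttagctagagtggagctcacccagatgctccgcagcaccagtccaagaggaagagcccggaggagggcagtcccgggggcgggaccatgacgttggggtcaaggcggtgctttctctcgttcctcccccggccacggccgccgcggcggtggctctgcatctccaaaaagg

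**Figure D4:**
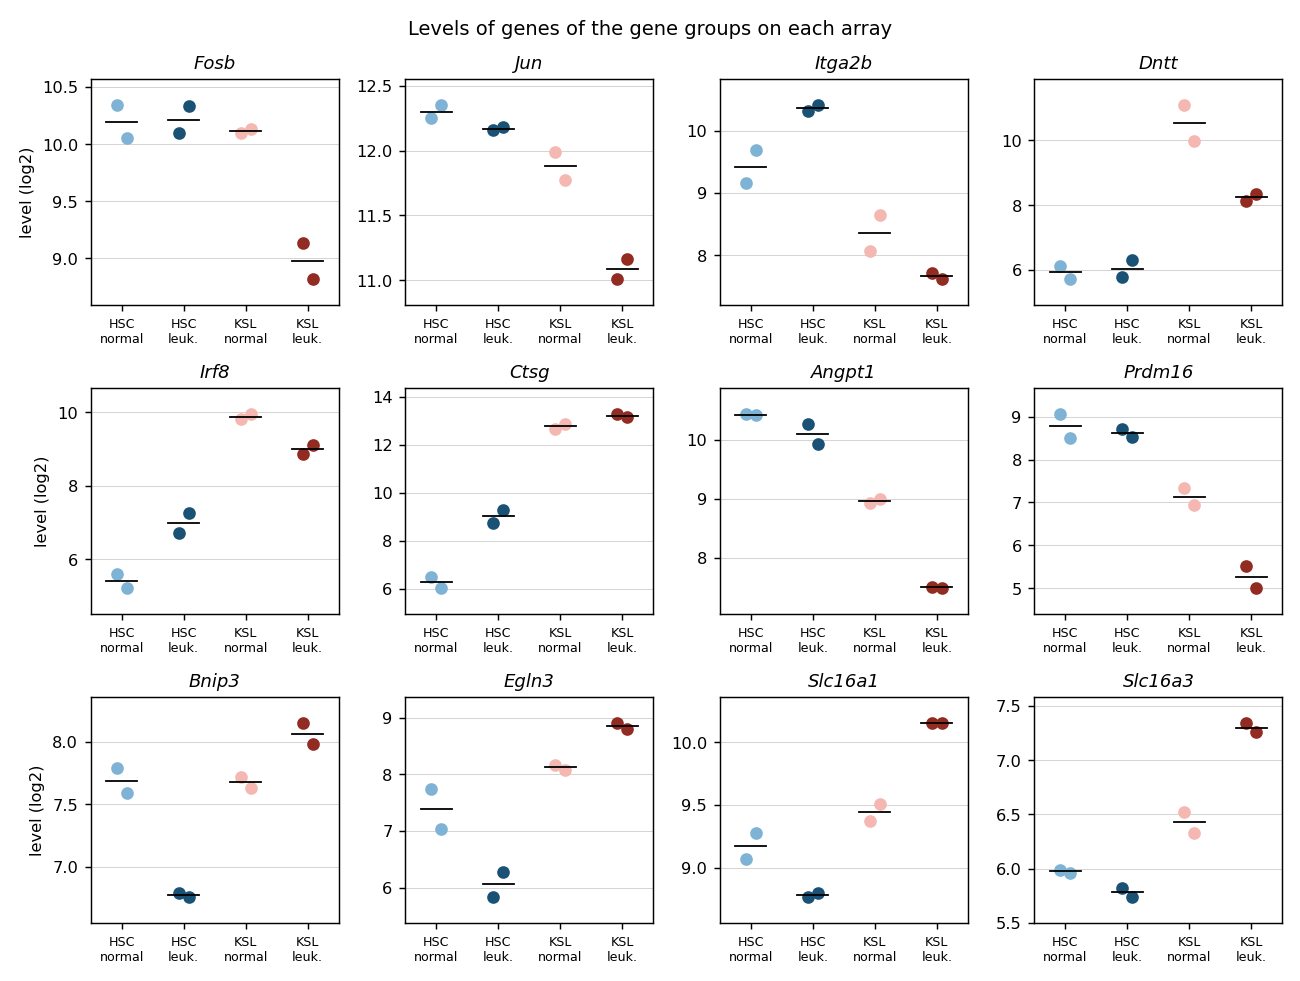
Log2 level of 12 genes from the gene groups on each of the 8 arrays (points, 2 per group) with the group mean (black line); each panel has its own vertical axis, which does not start at 0. Fosb, Jun and Dntt differ between the KSL groups, Ctsg between the HSC groups, Irf8 differs in opposite directions in the 2 cell types, and Bnip3, Egln3, Slc16a1 and Slc16a3 separate the cell types further in leukemic than in normal mice.

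Cytokine and inflammatory pathways gave medians of 0.20 to 0.38. The IL-6 and JAK-STAT3 list had a median interaction of 0.27, with 19 of 29 above 0 and an unadjusted p under 0.05 in 4 higher and 1 lower. Besides Il1r1, which is on it, the serine/threonine kinase gene Pim2 had 0.97 ± 0.24 and Ptpn2, a phosphatase that dampens JAK signalling, −0.88 ± 0.17. Other Ptpn2 probe sets gave −0.60, 0.31 and 0.42, and the mean of all its probe sets −0.18, so its direction is not settled. TNF and NF-kB response genes had a median of 0.38, 14 of 24 above 0, and 1 higher and 1 lower at that p, Il1r1 and Tnfrsf1a, the main TNF receptor, at −0.83 ± 0.28. Interferon-stimulated genes had 0.20, 20 of 28 above 0, and 1 such member, Oasl2, with 8.79 to 8.88 on the HSC arrays, 7.54 and 7.83 in KSL of normal mice and 6.40 and 6.34 in KSL of leukemic mice. Its interaction was 1.23 ± 0.14 (adjusted p = 0.176). MHC and antigen presentation genes had 0.20, with 11 of 16 above 0 and 2 such members, of which the class II invariant chain gene Cd74 had 1.99 ± 0.38. TGF-beta and BMP genes had 0.30, 17 of 25 above 0 and 3 such members, among them the co-receptor gene Tgfbr3 at 1.22 ± 0.37 and the inhibitor of differentiation Id3 at 1.51 ± 0.47. Homing, adhesion and chemokine receptor genes had 0.38, 17 of 22 above 0, and 3 higher and 1 lower. No member of these lists passed the interaction test. Each of the 6 medians stayed above 0 whichever array was left out, but their sizes moved: the TNF and NF-kB median was 0.02 with the mean of all probe sets, 0.13 and 0.69 without replicate 2 or 1 of HSC of normal mice, 0.21 and 0.25 without replicate 2 of HSC or KSL of leukemic mice and 0.14 without replicate 1 of KSL of normal mice. The IL-6 and JAK-STAT3 median was 0.08 without replicate 1 of HSC of leukemic mice and 0.17 without replicate 2 of KSL of normal mice. The MHC median was 0.11 and 0.39 without replicate 1 or 2 of HSC of normal mice and 0.10 without replicate 2 of HSC of leukemic mice. The interferon median was 0.31 to 0.34 without replicate 2 of HSC of normal mice, replicate 1 of HSC of leukemic mice or replicate 1 of KSL of normal mice, and the homing median was 0.25 without replicate 1 of HSC of leukemic mice. The TGF-beta and BMP median was 0.17 with the mean of all probe sets.

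Genes of basic cell functions gave medians of −0.10 to 0.19, against 0.02 over all genes above the minimum. Mitosis and spindle genes had a median of 0.19, 20 of 28 above 0 and 3 higher at an unadjusted p under 0.05, Kif11 among them, and the kinesin gene Kif2c at 1.50 ± 0.35, with 0.94, 1.02 and 0.09 for its other probe sets. DNA replication genes had −0.02, 13 of 28 above 0, with 2 higher and 3 lower, of which Gins1, a part of the replicative helicase, had −0.85 ± 0.23, but −0.04 for its other probe set, and Rpa2, a single-strand binding protein, −0.76 ± 0.19. Oxidative phosphorylation subunits had −0.10, 17 of 27 below 0 and 0 higher against 3 lower, among them cytochrome c (Cycs) at −0.48 ± 0.13, with −0.14, −0.08 and −0.33 for its other probe sets, and the complex I subunit gene Ndufs1 at −0.70 ± 0.20. Ribosomal proteins had 0.05, 16 of 23 above 0, and −0.04 after cyclic loess, where the median of all genes was 0.0185. Heat shock and unfolded protein genes had −0.04, 14 of 23 below 0 and 2 higher. p53 target genes had 0.06, 10 of 19 above 0, with 1 higher and 1 lower. The replication median was 0.06 without replicate 2 of KSL of normal mice and the p53 median −0.03 without replicate 2 of HSC of normal mice, so neither has a settled direction.

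Markers of other lineages were read as a check on the sorts. Plasma cell genes had a median of 0.99, 7 of 10 above 0 and 3 higher at an unadjusted p under 0.05. Their summed log2 level was 10.66 and 10.89 in HSC of normal mice, 11.31 and 11.84 in HSC of leukemic mice and 12.19 to 12.79 in KSL, and the joining chain gene Jchain ranged from 4.50 to 8.08 within HSC of normal mice alone, with an interaction of 4.80 ± 1.71. T and NK lineage genes had 0.96, 12 of 14 above 0 and 3 higher, among them Gata3 at 1.05 ± 0.34, and B lineage genes 0.50, 8 of 12 above 0 and 4 higher, among them Cd79b at 1.45 ± 0.26. Of the measured genes, 2 of 17 in the T and NK list (Ncr1 and Gzma) and 1 of 14 in the B list (Ms4a1) lay at the minimum on all arrays. The summed log2 level of the T and NK list was 10.64 to 11.07 in HSC and 12.17 to 12.47 in KSL. That of the B list was 12.16 to 12.64 over all arrays. Erythroid genes had 0.53, 11 of 18 above 0 and 2 higher, Hemgn at 1.98 ± 0.56 and the carbonic anhydrase gene Car2 at 1.13 ± 0.33. Macrophage and dendritic cell markers had 0.61, 10 of 15 above 0 and 1 higher, mature neutrophil and monocyte markers 0.20, 12 of 20 above 0 and 1 higher, and stromal and endothelial markers 0.27, 12 of 18 above 0, with 0 higher and 2 lower. Without replicate 2 of HSC of normal mice the erythroid median was −0.40 and the neutrophil and monocyte median −0.37, so neither has a settled direction, and the plasma cell median was 0.32 without replicate 2 of HSC of leukemic mice. The part of these cell types in the results was not tested.

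Mast cell, basophil and eosinophil genes had a median of −0.36, which was 0.04 over the 9 members left without the lowest 40% of genes, −0.08 without replicate 1 of KSL of normal mice and −0.58 without replicate 2 of HSC of leukemic mice, so its direction is not settled. There were 6 of 11 below 0 and 1 higher and 1 lower at an unadjusted p under 0.05. Cma1, a mast cell chymase, read 5.44 and 5.55 in HSC of normal mice, 5.62 and 6.14 in HSC of leukemic mice, 6.0 and 5.61 in KSL of normal mice and 8.62 and 8.89 in KSL of leukemic mice. Both arrays of KSL of leukemic mice stood above all others, with an interaction of −2.57 ± 0.33 (adjusted p = 0.196). The summed level of the list was 13.10 on both arrays of KSL of leukemic mice, 12.30 and 12.76 in KSL of normal mice and 11.40 to 12.03 in HSC.

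Sort-gate genes had an interaction above 0 in all 6 measured members, with a median of 0.32, and 0 of 6 had an unadjusted p under 0.05. Flt3 had 1.42 ± 1.21, Cd34 0.61 ± 0.31, Kit 0.39 ± 0.52, Ptprc (CD45) 0.24 ± 0.29, Cd48 0.15 ± 1.16 and Slamf1 0.004 ± 0.73. Other probe sets gave 1.17 and 0.53 for Slamf1, 1.09 for Ptprc and 0.23 for Kit. Replicates of both HSC groups differed for several of them, with Cd48 at 6.19 and 8.12 and Flt3 at 8.81 and 6.88 in normal mice, and Cd48 at 7.96 and 6.39, Flt3 at 8.63 and 6.98 and Kit at 10.80 and 9.70 in leukemic mice, and the signs for Kit, Ptprc, Cd48 and Slamf1 turned when single arrays were left out. Of the sex-linked list only 2 members were above the minimum, with a median of −0.45.

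**Figure D5:**
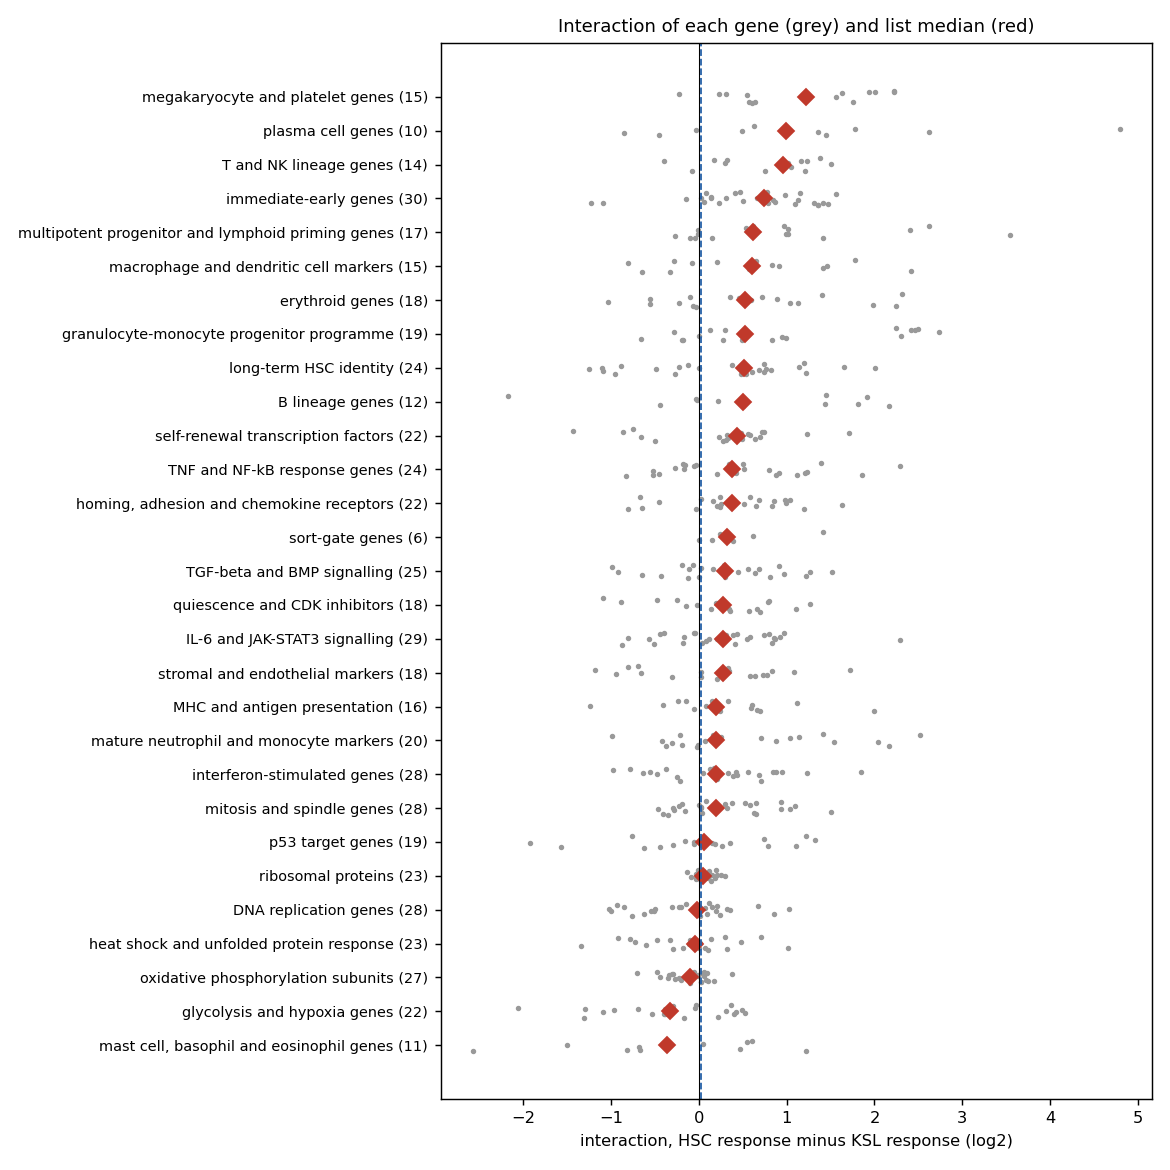
Interaction of each gene above the minimum (grey points, log2) and the median (red diamond) for 29 gene lists in order of the median; the number of genes is in brackets, the solid line marks 0 and the dashed line the median of all genes above the minimum. Megakaryocyte and platelet genes lie highest at 1.22 and mast cell, basophil and eosinophil genes lowest at −0.36, a median that was 0.04 without the lowest 40% of genes.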

How the data were processed

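Messenger RNA of sorted HSC and KSL cells was read on 8 Affymetrix mouse arrays, 2 per group. The authors deposited 1 table of log2 values for 45101 probe sets. Per the submitters' processing notes the values were made with RMA, which corrects background, equalises the arrays' distributions and combines the probes of a set; no version is named, and how the minimum of 3.32 came about is not given in the sources used here. Between 14.9% and 15.8% of the probe sets of an array lay at it, and the medians of the arrays were 5.74 to 5.86. Per the labels, disease state and cell type gave the groups. Free-text descriptions that mention embryos were set aside for the grouping, and the titles of leukemic KSL samples name both states. The design text names a Nugen amplification and the labelling protocol a standard Affymetrix one, so the amplification is not settled. P-values measure the spread between these samples, which may be technical, and 2 arrays per group limit the precision.

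Platform annotation gave 34945 probe sets 1 gene symbol, 932 several and 9160 none, and 64 were controls; 34741 were found by gene identifier in RefSeq's table for GRCm38.p6, and 0 symbols changed. The probe set with the highest mean stood for a gene, which gave 18193 genes, 9010 of them with several. The main test was limma's (version 3.58.1, R 4.3.3): lmFit with a mean for each of the 4 groups, then eBayes, with 4 residual and 0.67 prior degrees of freedom, two-sided, Benjamini-Hochberg adjustment over the 18193 genes and a threshold of 0.05. Errors are standard errors of that model, in which a gene's spread is shared by the 4 groups. The fit was tested on simulated data in which all arrays of a gene varied alike and independently. That test does not cover the larger spread of the HSC arrays. Tables and figures used Python 3.11.15 with pandas 2.3.3, numpy 2.4.6, and for plots matplotlib 3.10.9.

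The genes described, the rules and the 30 gene lists were chosen with earlier results of these data known. Genes were named by rule: 15 higher and 15 lower, by unadjusted p because none passed, up to 4 per list by smallest p, and the sort-gate genes, leaving out unnamed genes, olfactory receptors, small RNAs and antigen receptor segments; others are marked as chosen after their values were seen. Promoter motifs were counted on both strands. Alternatives changed the genes fitted, the scaling, the array weights, the prior spread, the probe sets, the replicate block, the male arrays and each array in turn. With sex-linked genes left out, same-numbered arrays did not deviate together (r of −0.05 to 0.08 between groups). In Xist, replicate 1 of HSC and of KSL of normal mice did, at 5.79 and 3.67. Whether these arrays share a source was not tested, and the main fit used no pairing.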

Additional observations from a re-analysis of the deposited data

Results flagged for a closer look

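One gene of the table passed the test of the interaction itself, and it lies outside the 15489 genes described because it was at the table minimum on 6 of 8 arrays. Slc16a12, a carrier of the monocarboxylate transporter family, read 4.48 and 4.47 in HSC of normal mice and 3.32, the minimum, on the other 6 arrays. Its fitted interaction was −1.15 ± 0.037 (limma adjusted p = 0.0245), a value that the minimum sets and that is no measured size. It was named after its values were seen.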

How the results depend on the processing

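There were 20 alternatives, 8 of which left out 1 array; Ccr9, Cdc42ep2, Clec1b, Lor, Ptpn14, Tob1, Veph1 and Zmat1 have 19, since they are not among the genes fitted without the lowest 40%. Of 96 named genes, 90 kept the direction of the interaction under each alternative run for them. The mean of all probe sets turned Lpgat1 to −0.44 and Rnf217 to −0.20. Cd48 was −0.84 and Ptprc −0.14 without the male arrays, and Slamf1 −0.01 with arrays shifted to a common median. With arrays left out, Cd48 ranged from −0.82 to 1.12, Kit from −0.16 to 0.95, Ptprc from −0.02 to 0.50 and Slamf1 from −0.64 to 0.65. Cyclic loess gave ribosomal proteins a median of −0.04. Against 1 call over all genes and 0 among genes above the minimum, there were 2 and 1 without the lowest 40% of genes, 5 and 2 with a prior spread with trend and robust, and 7 and 5 with the mean of all probe sets; over all genes there were 0 with only genes above the minimum fitted, a common median, cyclic loess, a term for the male arrays or without them. The replicate block gave 0 calls, and 832 higher and 732 lower at an unadjusted p under 0.05, and the replicate block within state 0, 818 and 686; the numbers are not shown to pair arrays. Without the lowest 40% of genes these counts were 517 and 426. With arrays left out, calls ranged from 0 to 68 over all genes and from 0 to 52 among genes above the minimum, and the unadjusted counts from 508 to 1427 higher and 473 to 1207 lower. Medians moved to −0.18 for glycolysis (mean of all probe sets), and to 0.83 for the granulocyte-monocyte programme and 0.53 for immediate-early genes (without the male arrays). With arrays left out they ranged from 0.18 to 0.59 for long-term HSC identity, 0.59 to 0.95 for the granulocyte-monocyte programme, 0.72 to 1.52 for megakaryocyte genes, 0.34 to 0.93 for lymphoid priming, and −0.34 to −0.14 for glycolysis. With 2 arrays per group the number of arrays limits what the interaction can show; the causes of these shifts were not tested.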
